A study of Mus musculus with 8 samples.

Results

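The 10 genes described here are the Toll-like receptor genes Tlr1 to Tlr9 and the adaptor gene Myd88, picked by symbol from the 750 genes of a NanoString mouse immune panel that also carried 20 housekeeping genes. They comprised 5 receptors of the cell surface (Tlr1, Tlr2, Tlr4, Tlr5 and Tlr6), 4 receptors of endosomes (Tlr3, Tlr7, Tlr8 and Tlr9) and 1 adaptor. RNA was taken from whole peritoneal tumors of MC38, a murine colon cancer line, grown in male wild-type C57BL/6 mice aged 7 to 8 weeks. From day 7 after implantation, the mice were given either RR-CDA, a cyclic dinucleotide that activates the innate immune adaptor STING, or PBS into the peritoneal cavity. RR-CDA was given as 2 injections of 15 µg that lay 3 days apart, and tumors were collected 10 days after the first injection, with 4 samples labelled as tumors in each group, to see which immune transcripts differ after STING activation. Data of 2 experiments were pooled and the experiment of each tumor is not given in the sources used here, so nothing was compared within an experiment. The labels do not say whether the tumors of a group came from separate mice, and p-values therefore measure only the spread between these samples.

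Counts over the panel genes totalled 241724, 293612 and 403150 in the lowest, median and highest PBS tumor, and 241506, 308126 and 414698 in the STING agonist tumors. Background was set in each tumor at 2 SD above the average of its negative control probes, and it averaged 8.62 counts. The tissue was labelled colon, but the epithelial genes Epcam and Cdh1 averaged 10.1 and 24.0 counts, so Epcam lay near background and Cdh1 was low. A pair of PBS tumors stood apart: replicates 2 and 4 differed by less than sampling noise over 358 genes of moderate count, their chi-square divided by its degrees of freedom being 0.404 where it was 5.89 to 12.6 in the 11 other pairs of a group. Over the 61 genes of high count they differed by more than sampling noise, at 6.39, against 45.1 to 364.1 in the other pairs. The labels give them as separate replicates. Whether they are 2 tumors, 1 RNA measured again or otherwise not independent was not tested. They were averaged and counted as 1 sample, PBS 2/4, which left 3 PBS samples against 4. Relative to the mean of PBS 1 and 3, this sample had 0.383 times the Ptprc and 0.181 times the Csf1r. Its summed macrophage, T cell, NK cell and B cell markers were below those of PBS 1 and 3, the last by less than 1 count from PBS 1, while its dendritic cell, endothelial and neutrophil sums were above them, the neutrophil sum through S100a8 where Csf3r and Cxcr2 were lower. Over 519 panel genes with a mean of at least 20 counts the median log2 ratio was -0.25. The ratio was 0.253 for Tlr8 and 0.364 for Tlr7, and Tlr1 and Tlr9 were under background in this sample, but it was 0.978 for Tlr4, 0.982 for Tlr6 and 0.936 for Myd88. STING agonist 4 stood apart in another way, with a sum of 1303 normalized counts over 8 hepatocyte genes where the other samples had 38.5 to 80.0. For the members, Ptprc and the named pathway genes, values without PBS 2/4 or STING agonist 4 are given below where that sample moved them strongly.

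Toll-like receptors recognize conserved molecules of microbes and of damaged cells. The surface receptors bind lipids, lipoproteins and flagellin, while the endosomal receptors bind nucleic acids that have been taken up into the cell. All but Tlr3 can signal through the adaptor MyD88 to NF-kB, Tlr3 uses the adaptor TRIF, and Tlr4 uses both. In tumors these receptors are found on macrophages, dendritic cells, B cells and other leukocytes, and some also on stromal and cancer cells. STING senses cyclic dinucleotides in the cytosol and does not need MyD88.

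Tlr9, Tlr1 and Tlr3 were the members in which every STING agonist tumor lay above every PBS sample. The groups were compared gene by gene with the quasi-likelihood test of edgeR on counts scaled to the housekeeping genes, and p was adjusted by Benjamini-Hochberg over all 750 genes. None of the 10 members had an adjusted p under 0.05, nor did any other gene of the panel (0%). At an unadjusted p under 0.05, 1 of 10 members passed, Tlr9, which was higher after treatment, against 142 of 750 panel genes (18.9%), with 132 genes on the higher side (17.6%) and 10 on the lower (1.33%). Treated and PBS values did not overlap in 3 of 10 members, all higher after treatment, against 126 of 750 genes (16.8%), and 0 members were lower without overlap against 11 genes (1.47%). With PBS 2 and PBS 4 as separate samples the 3 members stayed free of overlap, as did 120 genes of the panel (16%). For the 3 members this was no separate check, since PBS 2 and PBS 4 both lay below PBS 1 and 3. The median log2 fold change was 0.30 over the members and 0.22 over the panel. The log2 fold change lay above 0 in 8 of 10 members and in 533 of 750 panel genes. It lay above 0 in 6 of 10 members under TMM normalization, size factors of DESeq2 or the total count. There the values of Tlr4 and Myd88 turned below 0 and the median of the panel moved to -0.025, -0.038 and 0.014. Under each of these scalings 6 of 10 members lay above the median of the panel, as they did under housekeeping scaling. Without PBS 2/4 the median was 0.146 over the members and 0.158 over the panel, and 4 of 10 members lay above the latter. With DESeq2's Wald test, limma and the per-gene test named in the study's methods, 0 members passed after adjustment and 2, 2 and 2 before it, where 145, 143 and 96 of 750 panel genes did. Without PBS 2/4, STING agonist 1 or STING agonist 4, no member had an unadjusted p under 0.05, and 107, 85 and 89 panel genes did. The adjusted count of the panel was 1 without PBS 3, 7 without STING agonist 3 and 52 with DESeq2's Wald test.

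**Figure D1:**
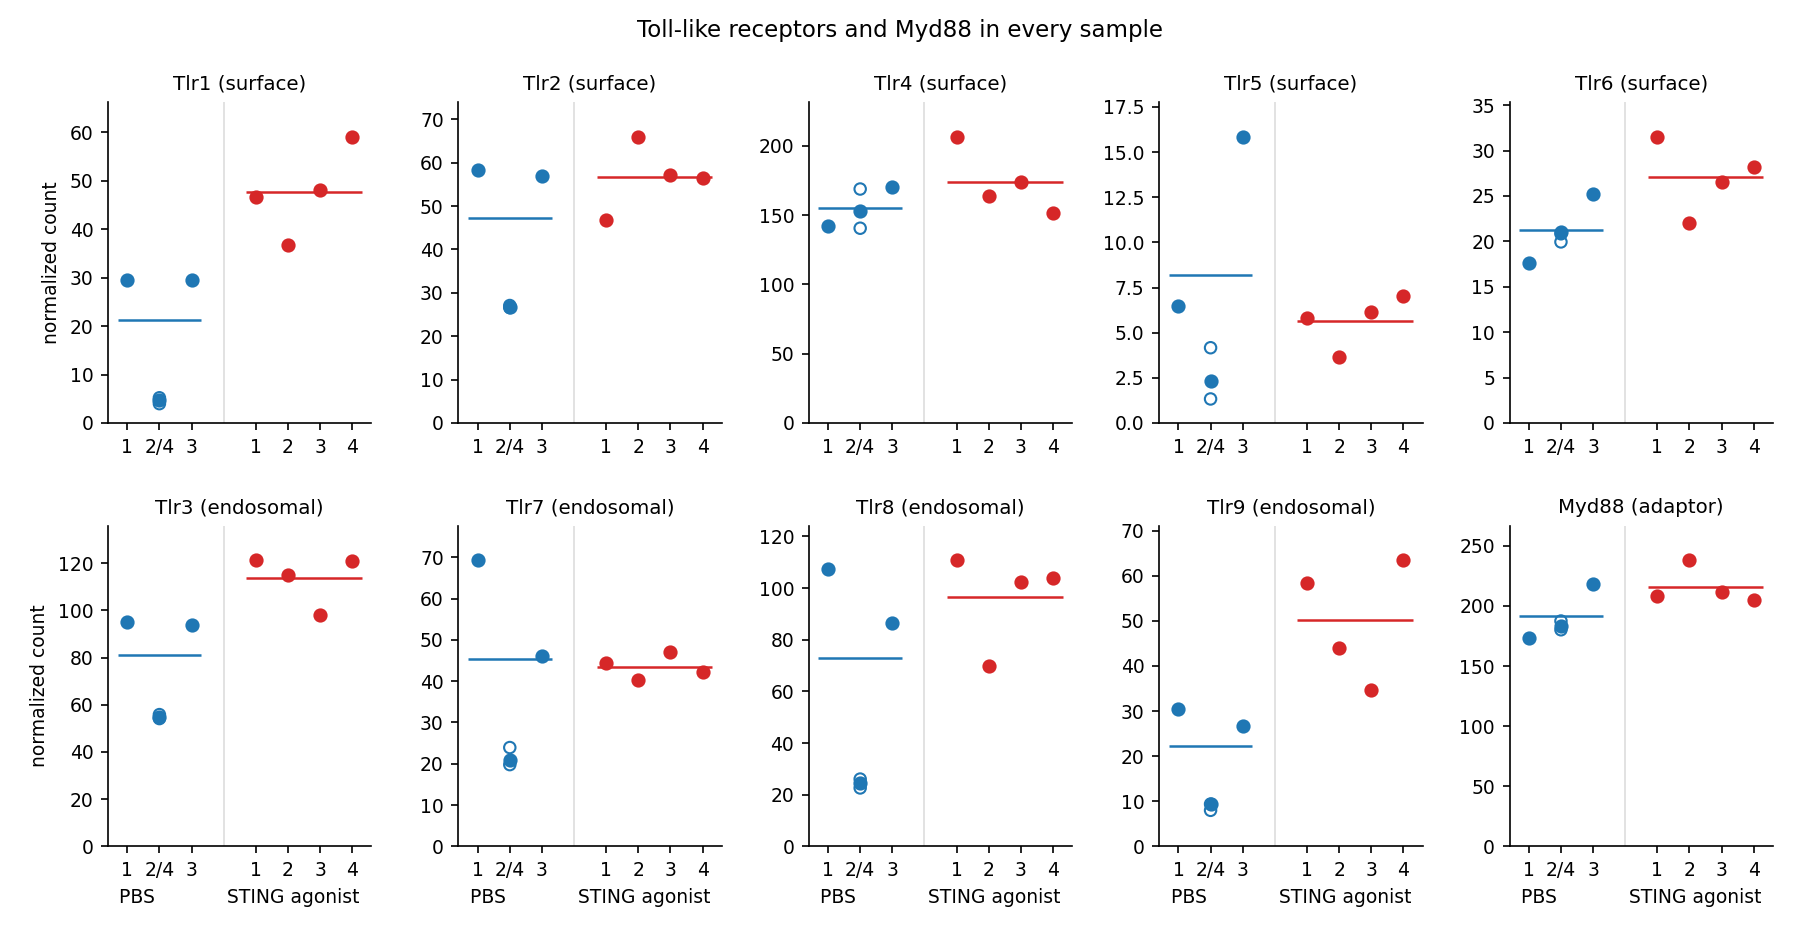
Normalized counts of the 10 members in every sample, each panel with its own vertical axis from 0. Filled points are the samples compared (blue, PBS; red, STING agonist), open circles are PBS 2 and PBS 4 before averaging, and lines are group means. All treated tumors lie above the PBS samples in Tlr1, Tlr3 and Tlr9. PBS 2/4 is the lowest sample in 7 of the 10 members, a share that was not counted over the panel.

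Among the surface receptors, Tlr1 differed most. Tlr1 (NM_030682.1), which pairs with Tlr2 to bind triacylated lipopeptides, had 29.6, 4.67 and 29.5 normalized counts in PBS 1, 2/4 and 3 and 46.7, 36.7, 48.0 and 59.1 in STING agonist 1 to 4. Here a normalized count is the count divided by the housekeeping level of the sample relative to that of all samples. The treated tumors were all higher, and PBS 2/4 lay far below the other PBS samples, with raw counts of 5 and 3 in replicates 2 and 4 that were under background. The means were 21.3 ± 14.4 (SD, n = 3) and 47.6 ± 9.18 (SD, n = 4), and the log2 fold change was 1.14 (SE 0.53, 95% interval -0.063 to 2.34). This difference had an adjusted p of 0.285 (edgeR quasi-likelihood test, Benjamini-Hochberg). Without PBS 2/4 the log2 fold change was 0.69 (SE 0.32), and without STING agonist 4 it was 1.01 (SE 0.55).

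Tlr2 (NM_011905.2), the shared partner of Tlr1 and Tlr6, had 58.3, 26.8 and 56.9 normalized counts in PBS 1, 2/4 and 3 and 46.7, 66.0, 57.2 and 56.5 in STING agonist 1 to 4. The treated tumors lay around the level of PBS 1 and 3, and PBS 2/4 was lower than all others. The log2 fold change of Tlr2 was 0.25 (SE 0.32), and -0.025 without PBS 2/4. It fell to 0.040 under TMM normalization, 0.027 with size factors of DESeq2 and 0.038 with the total count. Tlr6 (NM_011604.3), which pairs with Tlr2 to bind diacylated lipopeptides, had 17.6, 21.0 and 25.2 in the PBS samples and 31.5, 22, 26.6 and 28.2 in the treated tumors. In Tlr6, 3 of 4 treated tumors lay above all PBS samples and STING agonist 2 lay among them, with a log2 fold change of 0.34 (SE 0.30) that was 0.096 under TMM normalization.

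Tlr4 (NM_021297.2), the receptor of bacterial lipopolysaccharide, had 142, 153 and 170.0 normalized counts in PBS 1, 2/4 and 3 and 207, 164, 174 and 152 in STING agonist 1 to 4. The groups overlapped and the highest sample was 1.45 times the lowest, where in Tlr8 it was 4.53 times. Its means were 155 ± 13.9 (SD, n = 3) and 174 ± 23.6 (SD, n = 4), with a log2 fold change of 0.16 (SE 0.18) that was 0.071 without STING agonist 1 and turned to -0.090 under TMM normalization. Tlr5 (NM_016928.2), the flagellin receptor, was measured near background. Its raw counts ran from 1 to 22 and were above background in 2 of 8 tumors, PBS 3 and STING agonist 4, so its level and its log2 fold change of -0.58 (SE 0.56), which was -0.97 without PBS 2/4 and turned to 0.33 without PBS 3, carry a large counting error.

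Among the endosomal receptors, Tlr9 differed most. Tlr9 (NM_031178.2), which binds DNA rich in unmethylated CpG, had 30.5, 9.33 and 26.7 normalized counts in PBS 1, 2/4 and 3 and 58.4, 44.0, 34.7 and 63.5 in STING agonist 1 to 4. All treated tumors lay above the PBS samples, with STING agonist 3 nearest to them, and the raw counts of 9 and 6 in PBS 2 and 4 were under background. The mean went from 22.2 ± 11.3 (SD, n = 3) to 50.2 ± 13.2 (SD, n = 4), a ratio of 2.26, and the log2 fold change was 1.16 (SE 0.43, 95% interval 0.17 to 2.14). The adjusted p was 0.222, with a range from 0.0747 to 0.432 over 17 alternatives (edgeR quasi-likelihood test, Benjamini-Hochberg, or the test that the alternative names). Before adjustment Tlr9 passed 0.05 in 13 of the 17 alternatives. The log2 fold change of Tlr9 was 0.81 (SE 0.35) without PBS 2/4, 1.01 (SE 0.46) without STING agonist 4 and 0.93 (SE 0.37) under TMM normalization.

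Tlr3 (NM_126166.2), which binds double-stranded RNA, had 95.3, 54.8 and 93.6 normalized counts in PBS 1, 2/4 and 3 and 121, 115, 98.1 and 121 in STING agonist 1 to 4. All treated tumors lay above the PBS samples, STING agonist 3 by less than 3 counts. The means were 81.3 ± 22.9 (SD, n = 3) and 114 ± 10.9 (SD, n = 4), and the log2 fold change was 0.48 (SE 0.24, 95% interval -0.070 to 1.03). The adjusted p of Tlr3 was 0.327 (edgeR quasi-likelihood test, Benjamini-Hochberg). The log2 fold change was 0.27 (SE 0.20) without PBS 2/4 and 0.25 (SE 0.21) under TMM normalization.

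Tlr7 and Tlr8 are neighbouring genes of the X chromosome whose products bind RNA and its breakdown products. Tlr7 (NM_133211.3) had 69.4, 21.0 and 46.1 normalized counts in PBS 1, 2/4 and 3 and 44.4, 40.3, 47.0 and 42.3 in STING agonist 1 to 4. The treated tumors were close to each other and lay inside the wide range of the PBS samples. Its log2 fold change of -0.071 (SE 0.38) became 0.36 without PBS 1 and -0.40 without PBS 2/4. It was -0.30 under TMM normalization, -0.32 with size factors of DESeq2 and -0.31 with the total count. Tlr8 (NM_133212.2) had 107, 24.5 and 86.4 in the PBS samples and 111, 69.7, 102 and 104 in the treated tumors. PBS 2/4 was again the lowest sample, and the log2 fold change of Tlr8, 0.40 (SE 0.43), was 0.00066 (SE 0.26) without it, 0.78 without PBS 1 and 0.18 under TMM normalization.

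Myd88 (NM_010851.2), the adaptor, had 173, 183 and 218 normalized counts in PBS 1, 2/4 and 3 and 208, 238, 211 and 205 in STING agonist 1 to 4. Only STING agonist 2 lay above all PBS samples. The means were 192 ± 23.8 (SD, n = 3) and 216 ± 15.4 (SD, n = 4), with a log2 fold change of 0.17 (SE 0.16, 95% interval -0.20 to 0.54). It ran from 0.10 to 0.28 with 1 sample left out and turned to -0.068 under TMM normalization and -0.078 with size factors of DESeq2. Over the 7 members not yet given one, Myd88 included, the adjusted p ran from 0.593 to 0.946 (edgeR quasi-likelihood test, Benjamini-Hochberg). The plot of fold changes sets all members side by side.

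**Figure D2:**
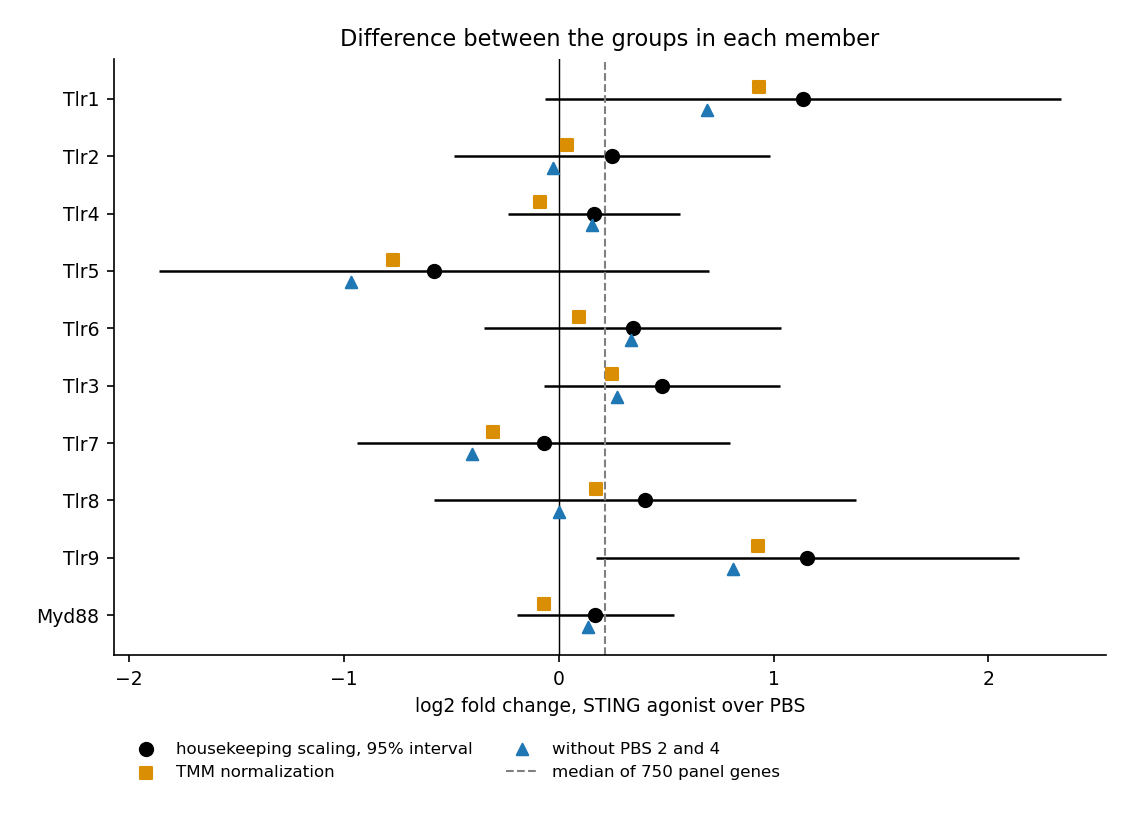
Log2 fold change of STING agonist over PBS for each member. Black points with bars are the estimate and its 95% interval under housekeeping scaling, orange squares the estimate under TMM normalization, blue triangles the estimate without PBS 2 and 4, and the dashed line the median of the panel at 0.22. Only the interval of Tlr9 lies wholly above 0, and under TMM normalization Tlr4 and Myd88 lie below 0.

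Promoter sequences are shown for the 3 members whose groups did not overlap and for Myd88. They come from RefSeq (GRCm38.p6) and run from 250 bases before to 50 after a gene's start. Of the 10 members 8 had a promoter in the table, in 10 windows since Tlr1 and Tlr6 had 2 each, and Tlr4 and Tlr7 had none. Capitals mark matches on either strand to 4 motifs: ISRE (GAAANNGAA, N being any base), bound by interferon regulatory factors, GAS (TTCNNNGAA), bound by STAT dimers, NF-kB (GGGNNNTCC) and PU.1 (GAGGAAG), a myeloid and B cell factor.
Tlr9, chr9:106222348-106222647, plus strand: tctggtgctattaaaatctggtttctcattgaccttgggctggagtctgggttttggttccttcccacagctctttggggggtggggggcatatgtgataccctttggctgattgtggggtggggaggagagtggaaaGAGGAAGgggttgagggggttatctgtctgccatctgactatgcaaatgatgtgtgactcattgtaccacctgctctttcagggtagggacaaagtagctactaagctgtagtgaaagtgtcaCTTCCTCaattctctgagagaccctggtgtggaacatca
Tlr1, chr5:64933509-64933808, minus strand: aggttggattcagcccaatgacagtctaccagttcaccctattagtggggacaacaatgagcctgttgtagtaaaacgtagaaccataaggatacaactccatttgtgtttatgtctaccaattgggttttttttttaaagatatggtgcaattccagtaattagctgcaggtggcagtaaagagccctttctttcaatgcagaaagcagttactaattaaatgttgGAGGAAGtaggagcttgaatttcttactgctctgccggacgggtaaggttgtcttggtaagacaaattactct
Tlr3, chr8:45410331-45410630, minus strand: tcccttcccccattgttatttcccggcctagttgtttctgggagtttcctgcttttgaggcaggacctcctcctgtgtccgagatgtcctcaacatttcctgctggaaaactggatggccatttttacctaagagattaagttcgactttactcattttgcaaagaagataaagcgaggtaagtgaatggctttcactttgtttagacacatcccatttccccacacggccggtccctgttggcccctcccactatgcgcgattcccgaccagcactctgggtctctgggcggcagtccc
Myd88, chr9:119339969-119340268, minus strand: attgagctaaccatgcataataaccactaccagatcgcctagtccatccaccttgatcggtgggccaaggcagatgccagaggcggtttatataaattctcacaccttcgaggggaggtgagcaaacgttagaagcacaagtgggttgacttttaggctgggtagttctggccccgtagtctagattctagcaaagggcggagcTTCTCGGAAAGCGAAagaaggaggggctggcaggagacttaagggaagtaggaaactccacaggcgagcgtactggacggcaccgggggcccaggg

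The Tlr9 window held 2 PU.1 matches, 1 on each strand, and the Tlr1 window printed held 1. The Myd88 window held 1 GAS and 1 ISRE match that overlap, TTCTCGGAA and GAAAGCGAA, and the Tlr3 window held no match to the 4 motifs as spelled. With the longer consensus of NF-kB, of 10 bases, an alternative added after the data were seen, the Tlr3 window held 1 match, GGGAGTTTCC, and 2 of 10 member windows, those of Tlr2 and Tlr3, held one, against 8.46% of all windows. The second Tlr1 window, chr5:64932650-64932949, held 1 GAS match. Of the other windows, those of Tlr6 held 2 ISRE matches in one and 2 GAS matches in the other, that of Tlr8 held 1 of each, that of Tlr2 held 4 NF-kB matches in overlapping pairs on opposite strands, and that of Tlr5 none. PU.1 was matched in 2 of 10 member windows and in 13.6% of all 32851 windows of the table, ISRE in 3 against 8.56%, GAS in 4 against 8.3% and NF-kB in 1 against 17.8%. A match is a description of the sequence, not a binding site or a cause.

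Endosomal and surface receptors were compared by averaging log2(normalized count + 1) in each class, over the members with a mean of at least 20 counts, 4 endosomal and 4 surface, which leaves out Tlr5. Relative to the mean of the PBS samples, the endosomal class stood at 0.61, -0.93 and 0.33 in PBS 1, 2/4 and 3 and at 0.77, 0.45, 0.51 and 0.76 in STING agonist 1 to 4. The surface class stood at 0.21, -0.59 and 0.38 in the PBS samples and at 0.62, 0.45, 0.58 and 0.62 in the treated tumors. Both classes were lowest in PBS 2/4, and in both the treated tumors lay near each other. The endosomal mean was higher by 0.62 and the surface mean by 0.57 after treatment, or by 0.16 and 0.28 without PBS 2/4. The difference between the classes was 0.17 ± 0.38 (SD, n = 3) in the PBS samples and 0.22 ± 0.11 (SD, n = 4) in the treated tumors, a gap of 0.054 that was smaller than the spread between PBS samples. It ran from 0.56 in PBS 1 to -0.18 in PBS 2/4, and the treated tumors, at 0.32, 0.17, 0.088 and 0.30, lay between these. Leaving out 1 sample moved the gap between -0.12 and 0.25 and counting Tlr5 made it 0.21, so no difference of the classes beyond the spread was seen. The median log2 fold change was 0.44 for the endosomal receptors and 0.25 for the surface receptors, with Tlr5 included, and 0.14 and 0.15 without PBS 2/4.

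**Figure D3:**
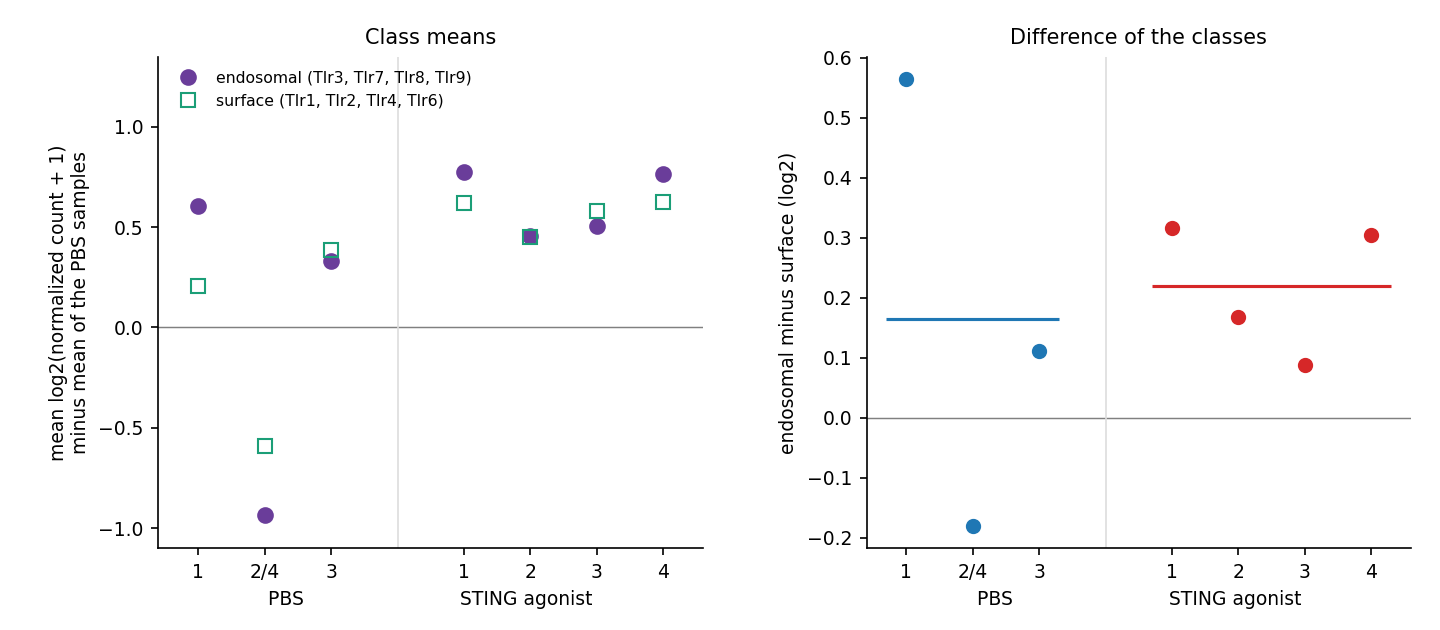
Left, mean log2(normalized count + 1) of the endosomal and surface receptors in every sample, minus the mean of the PBS samples. Right, the endosomal mean minus the surface mean in every sample, with lines at the group means of 0.17 and 0.22. PBS 2/4 is lowest in both classes, and the treated tumors lie inside the range of the PBS samples on the right.

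Ptprc encodes CD45, which all leukocytes carry. It had 108, 42 and 111 normalized counts in PBS 1, 2/4 and 3 and 257, 166, 140 and 267 in STING agonist 1 to 4, so that all treated tumors were higher. The log2 fold change of Ptprc was 1.24 (SE 0.38) and its adjusted p was 0.181 (edgeR quasi-likelihood test, Benjamini-Hochberg). With DESeq2's Wald test the adjusted p was 0.032, and without PBS 2/4 the log2 fold change was 0.92 (SE 0.30). In bulk samples fewer cells of a type and less RNA per cell cannot be told apart. Each member was also set against Ptprc, as log2 of the ratio of both normalized counts within a sample, which no scaling can change. This ratio does not separate cell number from RNA per cell either. Ptprc RNA per cell may differ too, and some receptors are also found on stromal and cancer cells. The ratio of Tlr9 was -1.83, -2.17 and -2.06 in PBS 1, 2/4 and 3 and -2.14, -1.92, -2.01 and -2.07 in STING agonist 1 to 4. The value in PBS 2/4 rests on Tlr9 counts under background. The values lay close together, and the group means of -2.02 ± 0.18 (SD, n = 3) and -2.04 ± 0.094 (SD, n = 4) differed by -0.017, or by -0.093 without PBS 2/4 and 0.079 without PBS 1. The ratio of Tlr1 was -1.87, -3.17 and -1.91 in the PBS samples and -2.46, -2.18, -1.54 and -2.18 in the treated tumors, and the groups overlapped. Its difference of 0.23 turned to -0.20 without PBS 2/4, where Tlr1 was under background as well. Relative to Ptprc, 6 of 10 members were lower in every treated tumor than in every PBS sample, and 0 were higher in every one, but of the 749 panel genes other than Ptprc 318 were lower (42.5%) and 5 higher (0.668%) in this way, and 701 had a mean difference below 0. The median difference was -0.99 over the members and -1.08 over these 749 genes, or -0.72 and -0.71 without PBS 2/4, so the receptors moved against Ptprc about as the panel did. The 6 members had mean differences of -1.17 for Tlr4, -1.23 for Tlr7, -1.15 for Myd88, -1.0 for Tlr2, -0.80 for Tlr3 and -1.50 for Tlr5, which was near background. The groups of Tlr3 were apart in both measures and in opposite directions, higher per housekeeping transcript and lower per Ptprc transcript. Ptprc itself was higher by 1.24, so a gene that rose by less fell relative to it. How many panel genes were apart in both measures was not counted. Tlr6 and Tlr8 had differences of -0.98 and -0.69 with overlap of the groups. Without PBS 2/4 the difference was -0.72 for Tlr4, -0.72 for Myd88, -0.60 for Tlr3 and -0.52 for Tlr6. With PBS 2 and PBS 4 as separate samples the groups of Tlr5 overlapped too, and 41.1% of the panel genes were lower and 0.668% higher without overlap. With Csf1r, the receptor of the macrophage growth factor CSF1, in place of Ptprc, a choice made after seeing the data, every difference shifts by the same small amount, that of Tlr9 from -0.017 to -0.0037, so the differences are no separate check of each member. The size of this shift depends on PBS 2 and 4. With them as separate samples the difference of Tlr9 was 0.075 over Ptprc and -0.10 over Csf1r. The ratio of Tlr9 to Csf1r was -2.77, -2 and -2.94 in PBS 1, 2/4 and 3. It was -2.30, -2.83, -2.71 and -2.45 in STING agonist 1 to 4. The overlap can change, and with Csf1r the groups of Tlr4 and Myd88 overlapped.

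**Figure D4:**
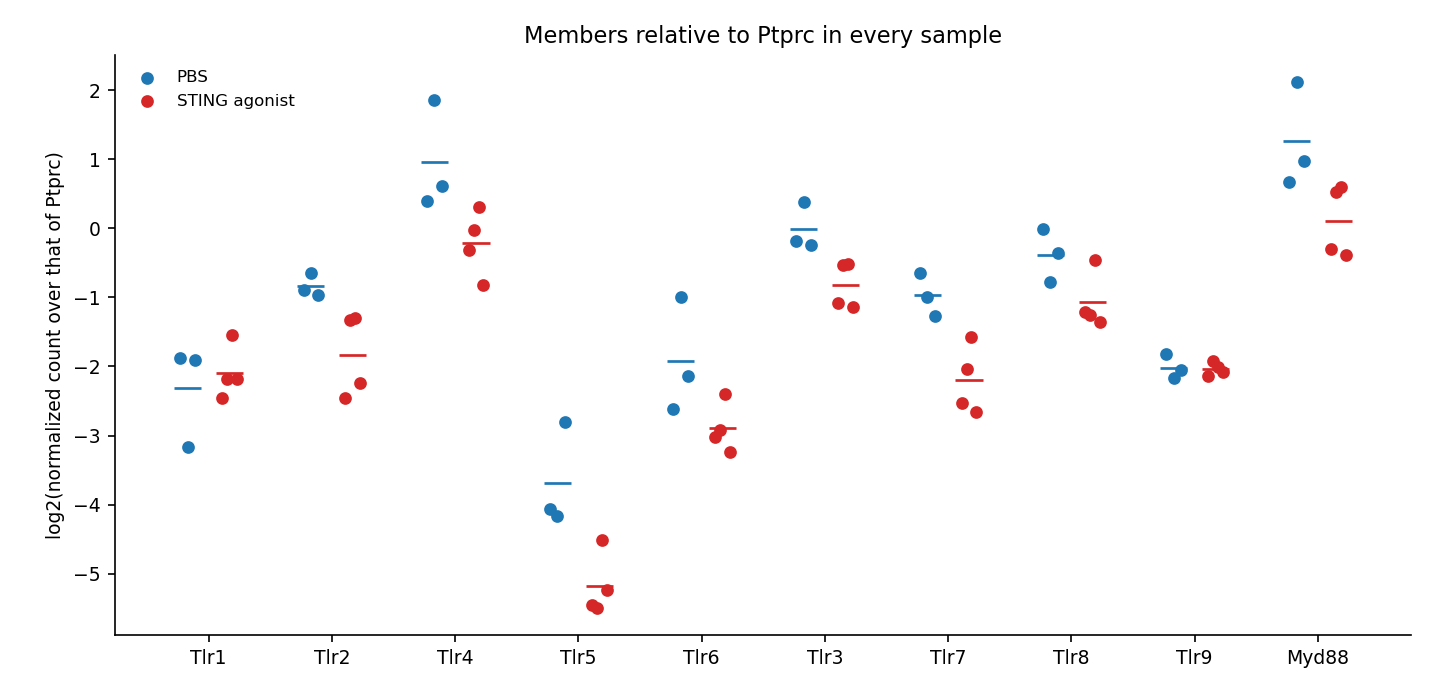
Log2 of each member's normalized count over that of Ptprc in every sample, with lines at the group means (blue, PBS; red, STING agonist). Tlr9 stays near -2 in all 7 samples, with its count in PBS 2/4 under background, while Tlr2, Tlr3, Tlr4, Tlr5, Tlr7 and Myd88 are lower in every treated tumor than in every PBS sample, as are 42.5% of the panel genes.

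The panel genes most like each member were found by the root mean square difference of their log2(normalized count + 1), each centred on its mean over the 7 samples, among 518 genes with a mean of at least 20 counts. This measure is also small between genes that merely vary little. The nearest gene to Tlr9 was Ptprc, at 0.103, followed by Ctss at 0.136 and Fcgr1 at 0.150, where the median gene was at 0.734. The values of Tlr9 and Tlr1 in PBS 2/4 that enter here were under background. Ly86 was among the 3 genes nearest to Tlr1, at 0.177, with a median of 0.964. Tlr8 lay nearest to Clec4a2 at 0.070, Cd84 and Lyn, and Tlr7 to Batf at 0.180, Fcgr3 and Nrp1. Tlr2 was followed most closely by Dusp6 at 0.123, Nrp1 and Clec4n. The nearest genes of Tlr3 were Sbno2 at 0.118, Tgfbr1 and Tank. Tlr4, Tlr6 and Myd88, which varied least, were nearest to Oasl1 at 0.075, Atg10 and Ifnar1, to Map3k5 at 0.065, Fyn and Bax, and to Map3k7 at 0.083 and Chuk.

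Beyond the receptors, a list of 52 coreceptors, adaptors, kinases and transcription factors of the pathway had 48 genes on the panel. Before adjustment p was under 0.05 for 7 that were higher (14.6%, against 17.6% of the panel) and 0 that were lower, 41 did not pass, and 0 passed after adjustment (quasi-likelihood test of edgeR) where 2 did with DESeq2's Wald test, Cd36 at 0.034 and Cd180 at 0.043. Of the 750 panel genes 52 passed after adjustment with DESeq2's Wald test. The median log2 fold change of the list was 0.14, below the 0.22 of the panel. The genes with the lowest p were Cd36, a scavenger receptor and partner of Tlr2, with 110 ± 30.2 (SD, n = 3) and 218 ± 66.8 (SD, n = 4) normalized counts, and Cd180, an accessory receptor of B cells and macrophages, with 121 ± 67.2 and 316 ± 117. Ly86, which encodes MD-1, the partner of Cd180, had 182 ± 122 and 435 ± 59.3, and Tnfaip3, which encodes the feedback inhibitor A20, had 64.2 ± 11.3 and 103 ± 19.8. Their log2 fold changes were 0.98 (SE 0.29) for Cd36, 1.38 (SE 0.46) for Cd180, 1.25 (SE 0.47) for Ly86 and 0.69 (SE 0.24) for Tnfaip3, with adjusted p of 0.181 to 0.225 (edgeR quasi-likelihood test, Benjamini-Hochberg), and in each all treated tumors lay above the PBS samples. The log2 fold change of Ly86 was 0.80 and that of Cd180 0.99 without PBS 2/4, and that of Tnfaip3 was 0.40 under TMM normalization and with size factors of DESeq2. Cd180 and Ly86, like Tlr1, were lowest in PBS 2/4, at 44.3 and 47.8 against 147 and 285 in PBS 1 and 171 and 214 in PBS 3. The count of 7 fell to 4 under TMM normalization and with size factors of DESeq2, 2 with the total count, 4 without PBS 1, 4 without PBS 3 and 3 without STING agonist 1. In the same order, 124, 122, 99, 104, 160 and 85 of 750 panel genes passed before adjustment.

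A list of 24 known transcriptional targets, all on the panel, had 10 genes that were higher with an unadjusted p under 0.05 (41.7%, against 17.6% of the panel), 0 that were lower, 14 that did not pass, and 0 that passed after adjustment (quasi-likelihood test of edgeR). With DESeq2's Wald test 3 passed after adjustment, Il1b and Cd40 at 0.025 and Cxcl10 at 0.032, where 52 of 750 panel genes did. The median log2 fold change of the list was 0.59, where that of the panel was 0.22, and 0.33 under TMM normalization, where that of the panel was -0.025. Many of these targets also respond to interferons and to cytokine receptors. The chemokine Cxcl10 had 3183, 2018 and 3743 normalized counts in PBS 1, 2/4 and 3 and 4940, 6435, 4169 and 6072 in STING agonist 1 to 4. The costimulatory receptor Cd40 had 35.1, 53.7 and 63.4 in the PBS samples and 103, 83.1, 90.9 and 117 in the treated tumors. Il1b, an inflammatory cytokine, had 12.9, 37.3 and 31.7 against 187, 59.9, 46.0 and 89.1, and Ccl5, a chemokine for T cells, had 309, 348 and 305 against 586, 417, 392 and 594. In these 4 genes the groups did not overlap, and PBS 2/4 was the lowest sample only in Cxcl10. Their log2 fold changes were 0.86 (SE 0.24), 0.95 (SE 0.27), 1.80 (SE 0.56) and 0.63 (SE 0.20), with adjusted p of 0.175 to 0.181 (edgeR quasi-likelihood test, Benjamini-Hochberg). That of Ccl5 was 0.35 under TMM normalization and 0.34 with size factors of DESeq2, and that of Cxcl10 was 0.64 without PBS 2/4. The count of 10 became 6 under TMM normalization, 4 with size factors of DESeq2, 6 without PBS 1 and 5 without STING agonist 1. In the same order, 124, 122, 104 and 85 of 750 panel genes passed before adjustment. These counts of the list and the panel take in both directions. With size factors of DESeq2 the share of the list was close to that of the panel.

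**Figure D5:**
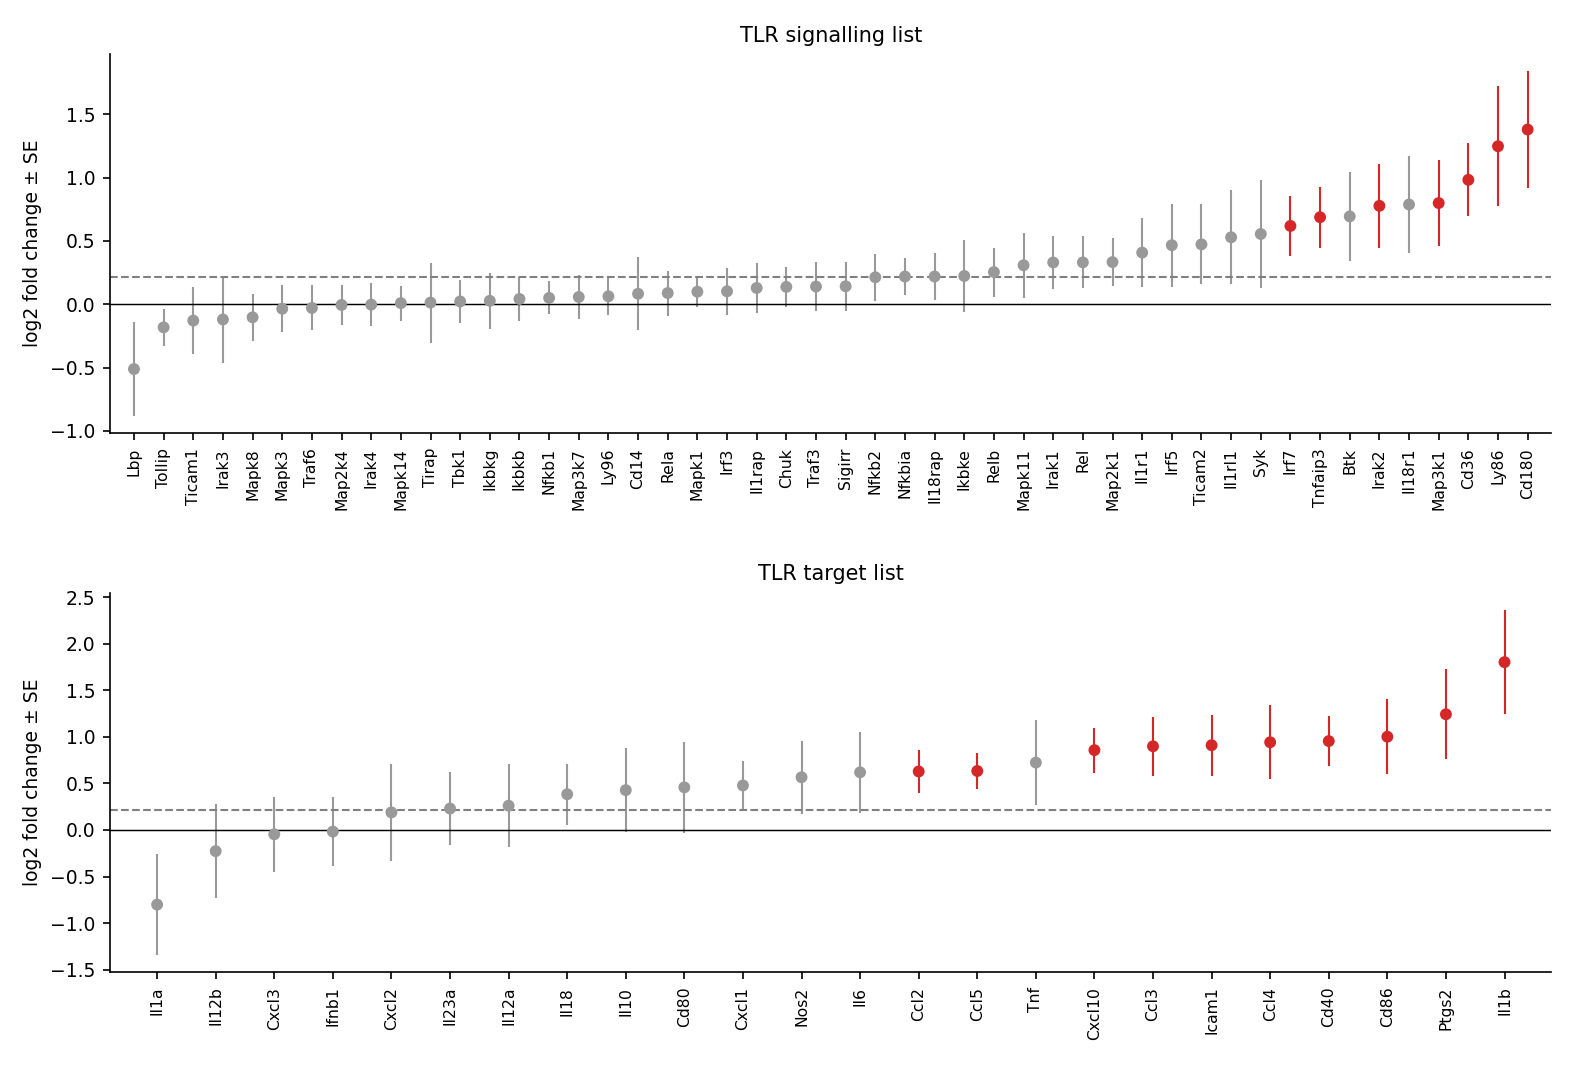
Log2 fold change with its SE for the 48 signalling genes (top) and 24 target genes (bottom) on the panel, ordered by size. Red marks an unadjusted p under 0.05 and the dashed line is the median of the panel at 0.22. All 7 and 10 red genes lie above 0.

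Marker lists of cells that carry these receptors were counted in the same way. Of 7 macrophage markers on the panel 1 was higher (Emr1) and 1 lower (Cd163) at an unadjusted p under 0.05, and their sum was 1747, 871 and 2277 normalized counts in PBS 1, 2/4 and 3 and 2510, 1808, 2159 and 2519 in STING agonist 1 to 4. The sum was lowest in PBS 2/4, and the groups overlapped. The most abundant, Cd68, had 563 ± 113 (SD, n = 3) and 695 ± 174 (SD, n = 4). Of 4 dendritic cell markers 1 was higher (Itgax), with sums of 34.2, 56.0 and 47.5 against 87.6, 42.8, 63.3 and 62.6, led by Ccr7. Xcr1 was at background, and Itgax was under it in the PBS samples and STING agonist 3. Of 3 plasmacytoid dendritic cell markers 1 was higher, Bst2, an interferon-induced gene that made up most of the sums of 3985, 4370 and 4496 against 7386, 5463, 4827 and 5894. Of 7 B cell markers 0 passed and 6 were at background, among them Ms4a1 and Pax5, with sums of 34.2, 33.8 and 64.8 against 63.1, 29.3, 64.4 and 59.1, led by Cd79b with means of 20.3 and 25.8. Of 4 neutrophil markers 0 passed, with sums of 307, 552 and 359 against 650.4, 298, 514 and 393, led by S100a8, and Cxcr1 was at background.

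Of 4 T cell markers 2 were higher, Cd3e and Cd3g, and the sums, led by Cd3d in the PBS samples and by Cd3g in the treated mean, were 124, 91 and 154 against 297, 161, 168 and 290.2. Of 3 NK cell markers 0 passed, with sums of 32.4, 19.8 and 27.4 against 19.9, 25.7, 32.7 and 33.5, led by Ncr1, and Klra1 was at background. Of 3 endothelial markers 0 passed, with sums of 202, 294 and 233 against 314, 244, 358 and 288, led by Pecam1. The epithelial sums, led by Cdh1, were 36.1, 36.2 and 48.3 against 28, 15.9, 34.7 and 27.4. Of 8 hepatocyte genes 1 was higher, Ambp, through STING agonist 4 alone, where it had 762 normalized counts, and Masp2 was at background. The part of these markers in the differences of the members was not tested.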

How the data were processed

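Total RNA of 8 samples labelled as whole tumors was measured with the mouse PanCancer Immune Profiling panel of NanoString on the nCounter platform. The authors deposited raw counts of each probe, neither scaled nor background-subtracted, and their later normalization with nSolver was not used here. The probes comprised 750 genes, 20 housekeeping genes, 8 negative and 6 positive controls, and the lowest count in every tumor was 1. Library sizes of 241506 to 414698 counts make counting error large for genes near background.

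Groups and replicate numbers came from the labels. Samples were scaled by the geometric mean of the housekeeping genes, of which 19 had at least 100 counts in every tumor. PBS replicates 2 and 4 entered as the rounded mean of their counts. All 750 genes were fitted without a filter by edgeR 4.0.16 (R 4.3.3, glmQLFit and glmQLFTest) with Benjamini-Hochberg adjustment. The procedure was also tested on simulated data, and the outcome of that test is not given here. Alternatives were TMM normalization, size factors and the Wald test of DESeq2 1.42.0, the total count, housekeeping genes with at least 100 counts, genes with a mean of at least 20 counts, limma 3.58.1 on log2(normalized count + 1), the per-gene test of the study's methods, all 8 tumors separate with and without a replicate block, and each sample left out in turn. The Ptprc ratios were recomputed with Csf1r, with all 8 tumors and with each sample left out, alternatives chosen after seeing the data.

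The members, gene lists and tests were chosen with earlier results of these data known. Named genes were the members, in each pathway list the 4 higher and 2 lower genes of lowest unadjusted p under 0.05, the 3 nearest genes of each member with a mean of at least 20 counts, and the most abundant gene of each marker list. Some genes that these rules name are not reported here. Marker genes named beyond this, among them Csf1r, Emr1, Itgax and Cd163, were chosen after their values were seen. The probe accessions of all 10 members matched their symbols in the RefSeq table (GRCm38.p6), which also gave the promoters. Python 3.11.15 and matplotlib 3.10.9 drew the figures.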

Additional observations from a re-analysis of the deposited data

Results flagged for a closer look

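Within the group of 4 STING agonist tumors, 43 quantities were looked at for a sample far from the others, with Dixon's ratio of the gap beside the outermost tumor to the span of all 4, at its 95% limit. Chance passes about 1 in 20 groups, here 2.15 of 43, and 2 passed. Ambp, a hepatocyte gene, was far higher in STING agonist 4, with a ratio of 0.988. The ratio of Tlr8 to Ptprc was higher in STING agonist 3, at -0.45 on the log2 scale where the other treated tumors lay between -1.36 and -1.21, with a ratio of 0.836. No normalized count of a member passed the limit. The PBS group, with 3 samples, was not tested.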

How the results depend on the processing

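Over 169 values of the members' log2 fold changes under the alternatives, 157 kept their sign and 12 did not, and none passed an adjusted p of 0.05. Under TMM normalization, size factors of DESeq2 and the total count, Tlr4 turned to -0.090, -0.099 and -0.034 and Myd88 to -0.068, -0.078 and -0.019, scalings that place the median of the panel near 0. S100a8 turned to -0.17, -0.17 and -0.039 and Ncr1 to -0.13, -0.15 and -0.11 under the same, and Pecam1 to -0.0095 and -0.017 under the first 2. Leaving out 1 sample gave ranges of -0.025 to 0.42 for Tlr2, -0.97 to 0.33 for Tlr5, -0.40 to 0.36 for Tlr7, 0.071 to 0.24 for Tlr4, 0.22 to 0.49 for Tlr6, 0.10 to 0.28 for Myd88, -0.042 to 0.49 for S100a8 and -0.041 to 0.22 for Ncr1. Tlr7 turned to 0.089 with limma and 0.12 with all 8 tumors separate. For these turns in sign the cause was not tested.

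Of the members, 1 had an unadjusted p under 0.05, and 0 did with the total count, 2 with DESeq2's Wald test, limma or the per-gene test, 3 with all 8 tumors separate, where 201 of 750 panel genes did, and 0 to 1 with a sample left out. Of the panel, 52 genes passed after adjustment with DESeq2's Wald test and 0 to 7 with a sample left out, and 85 to 160 passed before it. Higher against lower genes before adjustment numbered 132 and 10, and 84 and 40 under TMM normalization, 78 and 44 with size factors of DESeq2 and 68 and 31 with the total count. Of the signalling genes 4, 4 and 2 passed before adjustment under TMM normalization, size factors of DESeq2 and the total count, and 3 to 7 with a sample left out. Of the targets 6, 4 and 4 passed under TMM normalization, size factors of DESeq2 and the per-gene test, and 5 to 11 with a sample left out. The difference of endosomal and surface receptors, 0.054, was 0.21 with Tlr5 counted, 0.14 with all 8 tumors separate and -0.12 to 0.25 with a sample left out. Relative to Ptprc, Tlr1 turned from 0.23 to -0.20 without PBS 2/4 and Tlr9 from -0.017 to 0.079 without PBS 1, 0.017 without STING agonist 1 and 0.075 with all 8 tumors separate.

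The replicate numbers only name the tumors: deviations of same-numbered tumors correlated at -0.060, -0.081, -0.28 and -0.13, and no tumor correlated best with its own number. With the number as a block and all 8 tumors separate, 172 panel genes and 3 members had an unadjusted p under 0.05, 0 an adjusted one, and Tlr7 turned to 0.28.

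Counts of Tlr5 in most tumors, and of Tlr1 and Tlr9 in PBS 2 and 4, lay under background, which limits their fold changes.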
